A study of Mus musculus with 50 samples.

Results

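Silencing of X-linked genes was compared, gene by gene, between differentiating embryonic stem (ES) cells that lack Repeat B of Xist and a fibroblast line that lacks it, with all 1063 chromosome X genes of the deposited tables (of 24391 genes in all) as members. The measure was the 129 share: reads given to the 129 allele as a percentage of all reads given to either allele. Of the 1063 genes, 250 had at least 20 such allelic reads in both RepB-/- ES libraries and in the RepB MEF library, and 195 of these also in both WT ES libraries and in WT MEF. A further 132 genes reached 20 allelic reads only in the RepB-/- ES libraries and 7 only in RepB MEF, 253 had some allelic reads but too few in both cell types, and 421 had none.

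By the labels the strain background was CAST/Ei x 129/Sv/Jae in all cells, which puts 1 X chromosome of each strain into a female cell. The allelic reads of autosomal genes differed between the cell types. Their median 129 share was 98.6% to 98.7% in RepB-/- and wild-type ES cells, against 50.9% and 49.3% in RepB and wild-type fibroblasts. The groups were RepB-/- ES (2 RNA libraries), RepB+/- ES (2), WT ES (2), RepB MEF (1) and WT MEF (1), where MEF are mouse embryonic fibroblasts and WT is wild type. The RepB+/- ES libraries entered the shared fit only and no comparison. All ES groups had been on irradiated feeder fibroblasts for 3 days, then, with the feeders taken away, 4 days in suspension as embryoid bodies and 10 days on plates, the course over which X inactivation is set up. The MEF, somatic cells in which one X is silent already, were grown in fibroblast medium, and the labels do not say whether RepB MEF lost the repeat on 1 or both alleles, how many clones each line stands for or whether replicates were separate cultures. P-values between ES libraries therefore measure the spread between these libraries only.

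Xist is the long non-coding RNA that coats the X chromosome from which it is made and leads to its silencing. Repeat B, a stretch of short tandem repeats near its 5′ end, is known to recruit Polycomb complexes through the protein hnRNPK. Genes that keep some expression from the silenced X, such as Kdm5c, are called escape genes.

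The promoters of 3 genes are printed because they belong to genes at different ends of the comparison: Ogt, whose 129 share was high in RepB-/- ES and near 0 in RepB MEF, Pls3, whose share in RepB-/- ES was the lowest of the deeply covered genes and in RepB MEF near 0, and Kdm5c, which was at 20% or more in both. The windows, from RefSeq (GRCm38.p6), run from 250 bases before to 50 bases after the gene's start, at chrX:101639801-101640100 (plus strand) for Ogt, chrX:75875133-75875432 (minus strand) for Pls3 and chrX:152232977-152233276 (plus strand) for Kdm5c. Where several starts are listed, as for Ogt (2) and Pls3 (3), the one listed first is shown. Capitals mark CpG dinucleotides, which read the same on both strands.
Ogt: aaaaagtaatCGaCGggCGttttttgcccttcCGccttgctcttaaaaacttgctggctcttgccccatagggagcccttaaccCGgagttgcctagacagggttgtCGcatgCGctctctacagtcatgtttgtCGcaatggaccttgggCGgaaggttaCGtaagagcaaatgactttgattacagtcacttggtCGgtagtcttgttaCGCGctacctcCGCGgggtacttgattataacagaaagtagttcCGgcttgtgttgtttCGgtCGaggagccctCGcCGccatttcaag
Pls3: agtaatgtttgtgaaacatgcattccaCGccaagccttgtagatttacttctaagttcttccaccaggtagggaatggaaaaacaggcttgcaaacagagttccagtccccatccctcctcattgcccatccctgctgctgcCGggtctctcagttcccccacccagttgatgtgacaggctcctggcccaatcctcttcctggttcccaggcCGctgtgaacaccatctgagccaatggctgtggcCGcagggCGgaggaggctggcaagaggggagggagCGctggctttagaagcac
Kdm5c: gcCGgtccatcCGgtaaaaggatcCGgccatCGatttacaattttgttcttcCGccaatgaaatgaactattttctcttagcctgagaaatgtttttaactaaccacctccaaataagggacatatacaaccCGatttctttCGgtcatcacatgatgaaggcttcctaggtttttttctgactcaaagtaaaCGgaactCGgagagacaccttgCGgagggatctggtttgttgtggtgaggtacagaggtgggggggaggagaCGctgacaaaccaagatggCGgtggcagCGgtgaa
The windows hold 20 CpG in Ogt, 6 in Pls3 and 13 in Kdm5c. Promoters were matched for 216 of the 249 measured genes other than Xist, and each held at least 1 CpG, as did 94.2% of all 27025 RefSeq promoters. The median number of CpG was 17.5 for genes at 20% or more in RepB-/- ES and under 10% in RepB MEF (156 promoters), 16.5 for genes under 20% and under 10% (26) and 18 for genes at 20% or more in both (23), against 7.0 over all RefSeq promoters. The class medians lay close together.

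The deletion itself cannot be checked in counts per gene, but the reads of Xist show which chromosome made it. Xist (chrX:100655712-100663375, minus strand, mm9, 1 exon as the tables give it) stood at 799 and 1101 CPM (counts per 1000000 reads) in RepB-/- ES, 879 and 868 CPM in WT ES, 567 CPM in RepB MEF and 477 CPM in WT MEF. Most of its reads came from the 129 chromosome in every library, so the 129 share of other genes reads expression from the X that carries most Xist. The share of Xist reads from the CAST chromosome was 10.8% and 12.8% in RepB-/- ES, against 1.13% and 1.42% in WT ES, 0.834% in RepB MEF and 0.273% in WT MEF. Xist was the only X-linked gene whose ratio of 129 to CAST reads was called lower in RepB-/- ES than in RepB MEF (edgeR quasi-likelihood test, log2 ratio −3.99, adjusted p = 7.81e-50). How much the added CAST-derived Xist bears on the X shares was not tested.

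Depth and cell identity differed between the libraries. Total counts were 28045645 and 21649020 in RepB-/- ES, 19676395 and 12505962 in WT ES, 18631736 in RepB MEF and 12126941 in WT MEF, of which 26.9% to 27.99% were allelic. All 10 pluripotency markers were at 1 CPM or more in the ES libraries, and they summed to 530 and 449 CPM in RepB-/- ES, against 229 and 278 CPM in WT ES. In RepB MEF they summed to 58.9 CPM and in WT MEF to 44.7 CPM, with only 1 of the 10 at 1 CPM or more in each and Pou5f1 at 0 in both. Heart muscle markers summed to 262 and 260 CPM in RepB-/- ES, against 584 and 645 CPM in WT ES, and endoderm markers to 661 and 577 CPM, against 309 and 326 CPM. Neural markers summed to 182 and 169 CPM in RepB-/- ES, 133 and 127 CPM in WT ES, 202 CPM in RepB MEF and 351 CPM in WT MEF. Of 19 fibroblast markers, 15 reached 1 CPM in RepB MEF, where Thy1, Lum and Fap were at 0, 17 did so in WT MEF and 18 in each ES library. Their sums were higher in MEF, at 55750 CPM in RepB MEF and 74620 CPM in WT MEF. In ES they summed to 32290 and 37690 CPM in RepB-/- cells and to 35650 and 43810 CPM in WT cells. The part of these differences in cell makeup in the X shares was not tested. The 6 Y-linked genes were at 0 in all libraries.

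With Xist left out, X-linked genes had a high 129 share in RepB-/- ES and almost none in RepB MEF. Over the 194 genes measured in all 6 libraries, the median 129 share was 38.6% and 37.0% in RepB-/- ES, 5.26% and 6.34% in WT ES, 0.409% in RepB MEF and 0.0736% in WT MEF. The RepB-/- ES libraries averaged 37.8% ± 1.09 (SD, n = 2), which was 37.4 percentage points above the RepB MEF library and 32.0 points above WT ES at 5.80% ± 0.768 (SD, n = 2). RepB MEF was 0.335 points above WT MEF. The 95% order-statistic intervals of those medians, 0.0% to 0.667% and 0.0% to 0.644%, cover the spread over genes within 1 library each. Their overlap is no test of a difference between the MEF genotypes. An exact two-sided permutation test of library medians gave p = 0.3333 for RepB-/- ES against RepB MEF and against WT ES, which is the smallest p that 2 against 1 or 2 against 2 libraries allow. On chromosome 13, used as the background because its 129 share lies near 50% in every library, the medians were 49.9% and 50.3% in RepB-/- ES, 50.8% and 50.0% in WT ES, 50.6% in RepB MEF and 51.5% in WT MEF.

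**Figure D1:**
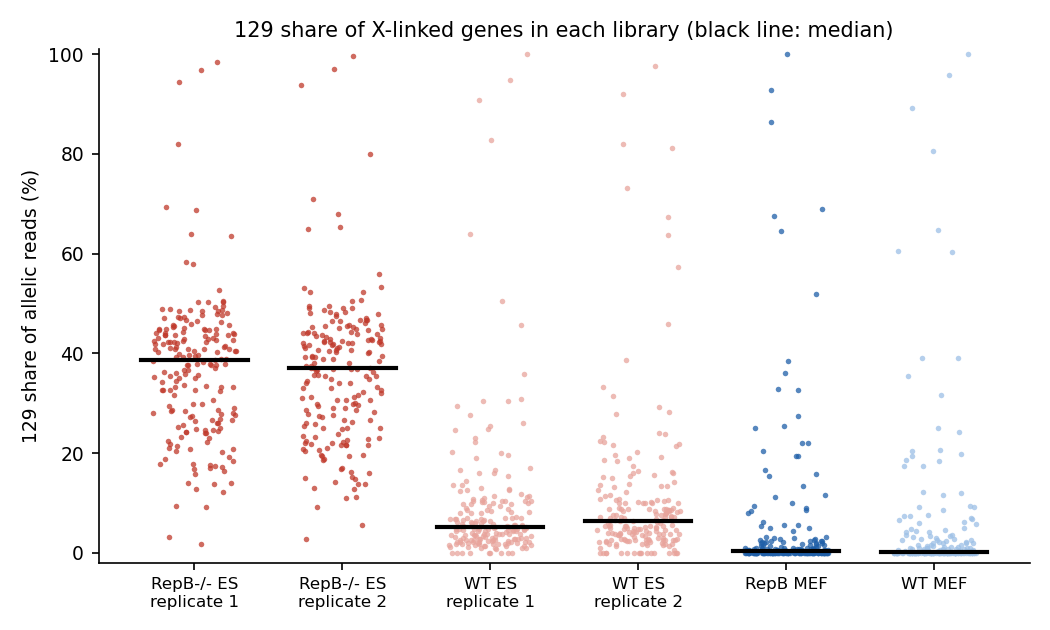
Each point is the 129 share (percentage of allelic reads) of 1 of 194 X-linked genes in 1 library, with the median as a black line and points spread sideways for sight only. The RepB-/- ES medians lie at 38.6% and 37.0%, the WT ES medians at 5.26% and 6.34%, and both MEF medians are under 1%.

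Of the 194 genes, 82 and 83 in the RepB-/- ES libraries had a 129 share between the 5th and the 95th percentile of chromosome 13 genes in the same library, against 3 and 5 in WT ES, 4 in RepB MEF and 6 in WT MEF. Genes under 10% numbered 4 and 3 in RepB-/- ES, 142 and 134 in WT ES, 168 in RepB MEF and 170 in WT MEF. In RepB MEF 85 genes had no 129 read at all, and in WT MEF 97. Across the 194 genes, replicates 1 and 2 of RepB-/- ES ranked genes alike (Spearman rho 0.91), and RepB MEF went with WT MEF (0.73). The mean RepB-/- ES share went with the mean WT ES share (0.64) and less with the RepB MEF share (0.28). The 85 genes tied at 0 in RepB MEF have no rank order among them. By Pearson correlation these 2 values lay closer, at 0.74 with WT ES and 0.62 with RepB MEF. These are descriptions over genes of the same libraries, which share depth and variant positions. Such bulk values cannot tell apart a few cells with full 129 expression from many cells with a little.

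Gene by gene, most X-linked genes had a higher 129 ratio in RepB-/- ES. In the edgeR quasi-likelihood fit of 129 and CAST reads over all 8 RNA libraries, 218 of 250 X genes were called toward 129 in RepB-/- ES against RepB MEF at a Benjamini-Hochberg adjusted p under 0.05, and 1, Xist, toward CAST. Over all genes tested the share called was 68.5% toward 129 and 6.39% toward CAST, and on chromosome 13 it was 2.6% and 3.76%. The high value goes with the autosomes, whose genes had median 129 shares of 98.7% in both RepB-/- ES libraries and 50.9% in RepB MEF. The fit takes the single MEF libraries to vary as the ES libraries do. Of the 249 genes other than Xist, both RepB-/- ES shares lay above the RepB MEF share in 237 and both below in 7. The same count was not made for other chromosomes, so it does not show what is particular to X.

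**Figure D2:**
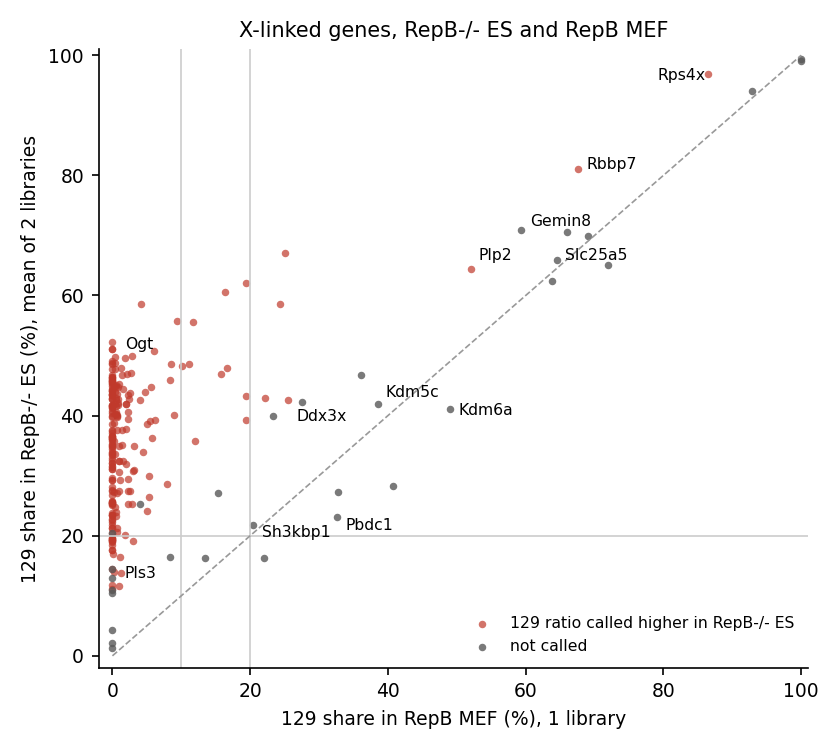
Each point is 1 of 249 X-linked genes, with its 129 share in RepB MEF (percent, 1 library) across and its mean 129 share in the 2 RepB-/- ES libraries (percent) up. Grey lines mark 10% and 20%, the dashed line equal shares, and red points the 218 genes called, most of them stacked at the left edge where RepB MEF is near 0.

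The genes fell into a few classes by share. The class of 183 genes (73.5%) at 20% or more in RepB-/- ES and under 10% in RepB MEF was the main one. Its 147 members measured in all libraries had medians of 39.2% and 38.0% in RepB-/- ES, 4.84% and 6.02% in WT ES, 0.313% in RepB MEF and 0.0% in WT MEF. In 25 genes the share was 20% or more in both RepB-/- ES and RepB MEF. The 16 of these measured in all 6 libraries had medians of 54.7% and 56.8% in RepB-/- ES, and 33.4% and 51.55% in WT ES. In MEF their medians were 37.3% in RepB and 39.05% in WT, and 13 of the 16 were at 20% or more in WT MEF. In 11 genes the share was 20% or more in RepB-/- ES and 10 to 20% in RepB MEF. In 25 others it was 10 to 20% in RepB-/- ES and under 10% in RepB MEF. Cxx1a and Cxx1b stayed at 10 to 20% in RepB-/- ES with 22.03% and 13.4% in RepB MEF. Their wild-type values were similar: Cxx1a had 16.5% in both WT ES libraries and 18.6% in WT MEF. Cxx1b had 19.6% and 11.4% in WT ES and 12.3% in WT MEF. Cxx1c, Eif2s3x and Pgk1 were under 10% in both RepB-/- ES and RepB MEF. This count of 3 became 7 with RepB-/- ES replicate 2 left out.

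In RepB MEF, 117 of the 249 genes had 0 reads from 129, of a median of 69 allelic reads, and 96 of these stood at 20% or more in RepB-/- ES. A count of 0 allows a share of up to 4.35% at 69 reads (3 reads of the total), so low expression from 129 in MEF was not detectable for many of them. Gpc4, a cell-surface heparan sulphate proteoglycan, set the tightest limit: 0 of 955 reads in RepB MEF, which allows up to 0.314%, against 26.0% and 25% in RepB-/- ES.

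Among genes of chromatin and transcription, 34 of 44 in the list were measured, with medians of 41.0% and 39.7% in RepB-/- ES and 0.693% in RepB MEF, and 30 were called toward 129. The counts of called genes in this and the later lists stand beside 87.2% of all measured X genes called toward 129, the level against which each is to be read. Ogt, the enzyme that adds O-GlcNAc to nuclear and cytoplasmic proteins, had the largest difference among the 76 genes with at least 200 allelic reads in each RepB library. Its 129 share was 50.4% and 49.2% in RepB-/- ES, 27.7% and 21.5% in WT ES, 0.328% (1 of 305 reads) in RepB MEF and 0.0% (0 of 140) in WT MEF. The ES values of both genotypes lay far above the MEF values, and RepB-/- ES lay close to 50%. The edgeR log2 ratio of RepB-/- ES to RepB MEF was 8.24 ± 0.62 (SE, adjusted p = 1.56e-39). Zmym3, a zinc finger protein of chromatin complexes, had 45.0% and 42.0% in RepB-/- ES, 4.72% and 9.96% in WT ES, and 0.0% in both MEF libraries (0 of 246 reads in RepB MEF). Kdm5c, a demethylase of histone H3 lysine 4, was not shifted in this way: it had 42.9% and 41.0% in RepB-/- ES, 24.6% and 22.4% in WT ES, 38.5% in RepB MEF and 31.7% in WT MEF. Its ratio in RepB-/- ES against RepB MEF was not called (log2 ratio 0.21 ± 0.27, SE, adjusted p = 0.509 in edgeR). Rbbp7, a histone-binding subunit of several chromatin complexes, had 129 shares of 67.6% or more in every library.

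Genes of RNA handling and translation had the highest median ES share of the lists (22 of 34 measured, medians 48.5% and 47.4% in RepB-/- ES and 6.06% in RepB MEF, 17 called toward 129). Ftsj1, a methyltransferase of transfer RNA, had 49.3% and 48.3% in RepB-/- ES, 10.2% and 7.59% in WT ES, 0.338% in RepB MEF and 0.0% in WT MEF. Eif1ax, a translation initiation factor, had 48.8% and 47.9% in RepB-/- ES, 14.5% and 8.97% in WT ES, 10.1% in RepB MEF and 7.44% in WT MEF. Dkc1, the pseudouridine synthase of small nucleolar RNA complexes, had 46.6% and 47.1% in RepB-/- ES, 26.0% and 38.6% in WT ES, 15.8% in RepB MEF and 24.3% in WT MEF. Eif1ax and Dkc1 thus kept a 129 share well above the MEF median in both MEF lines. Rps4x, a ribosomal protein gene with near-identical copies elsewhere in the genome, stood at 96.9% and 97.1% in RepB-/- ES and at 86.5% in RepB MEF, and its allelic counts are uncertain.

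In metabolism and mitochondria 34 of 56 genes were measured, with medians of 37.8% and 36.3% in RepB-/- ES and 0.42% in RepB MEF, and 31 were called toward 129. Idh3g, a subunit of mitochondrial isocitrate dehydrogenase, had 44.6% and 45.3% in RepB-/- ES, 8.05% and 7.78% in WT ES, 0.393% in RepB MEF and 0.388% in WT MEF. Lamp2, a lysosomal membrane protein, had 42.4% and 43.1% in RepB-/- ES, 2.52% and 4.51% in WT ES, 0.816% in RepB MEF and 0.147% in WT MEF. Slc25a5, the mitochondrial ADP/ATP carrier, which also has near-identical copies elsewhere, stood between 60.3% and 67.9% in all 6 libraries and was not called.

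All 17 measured genes of ubiquitin and proteolysis (of 28) were called toward 129, with medians of 40.2% and 39.4% in RepB-/- ES and 0.35% in RepB MEF. Uba1, the enzyme that activates ubiquitin, had 48.9% and 46.6% in RepB-/- ES, 13.7% and 16.03% in WT ES, 0.412% (9 of 2184 reads) in RepB MEF and 0.644% in WT MEF. The edgeR log2 ratio of RepB-/- ES to RepB MEF was 7.79 ± 0.34 (SE, adjusted p = 5.67e-116). Usp9x, a deubiquitinase, had 44.0% and 43.8% in RepB-/- ES, 9.39% and 12.2% in WT ES, 0.35% in RepB MEF and 0.0% in WT MEF. Maged2 was among the least shifted, at 17.6% and 15.3% in RepB-/- ES, 2.24% and 2.56% in WT ES, 1.06% in RepB MEF and 0.988% in WT MEF.

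In cell cycle, cohesin and DNA replication, 18 of 25 genes were measured and 17 called toward 129, with medians of 43.5% and 44.5% in RepB-/- ES and 0.253% in RepB MEF. Smc1a, a core subunit of cohesin, had 42.5% and 44.8% in RepB-/- ES, 6.83% and 10.1% in WT ES, 0.718% in RepB MEF and 0.392% in WT MEF. Kif4, a kinesin that binds mitotic chromosomes, had 44.6% and 45.8% in RepB-/- ES, 6.91% and 10.5% in WT ES, 0.99% in RepB MEF and 2.17% in WT MEF. The signalling list (22 of 63 measured) had medians of 40.9% and 40.2% in RepB-/- ES and 1.42% in RepB MEF, with 20 called toward 129. Irak1, a kinase downstream of Toll-like and interleukin-1 receptors, had 38.8% and 36.3% in RepB-/- ES, 6.98% and 7.19% in WT ES, 1.37% in RepB MEF and 0.336% in WT MEF.

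Genes of the cytoskeleton, adhesion and matrix, which fibroblasts express strongly, gave the deepest MEF values and a lower ES median (28.5% and 28.7% in RepB-/- ES and 0.269% in RepB MEF, 25 of 59 measured, 24 called toward 129). Flna, which crosslinks actin filaments, had 45.2% and 44.3% in RepB-/- ES, 5.25% and 5.57% in WT ES, 0.482% (79 of 16392 reads) in RepB MEF and 0.365% (63 of 17266) in WT MEF. Both MEF values were precise and under 1%, and their exact Clopper-Pearson 95% intervals, 0.382% to 0.6% in RepB MEF and 0.281% to 0.467% in WT MEF, overlapped. Such intervals cover counting error only. Bgn, the matrix proteoglycan biglycan, had 29.9% and 28.7% in RepB-/- ES, 1.82% and 2.46% in WT ES, 1.17% (124 of 10611 reads) in RepB MEF and 0.976% in WT MEF. Pls3, an actin-bundling protein, had the lowest RepB-/- ES share among the 76 deeply covered genes, 14.1% and 13.8%, with 1.13% and 2.11% in WT ES, 0.269% in RepB MEF and 0.0% in WT MEF. It was still called toward 129 in RepB-/- ES against RepB MEF (edgeR, log2 ratio 5.91 ± 0.75, SE, adjusted p = 6.25e-15).

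**Figure D3:**
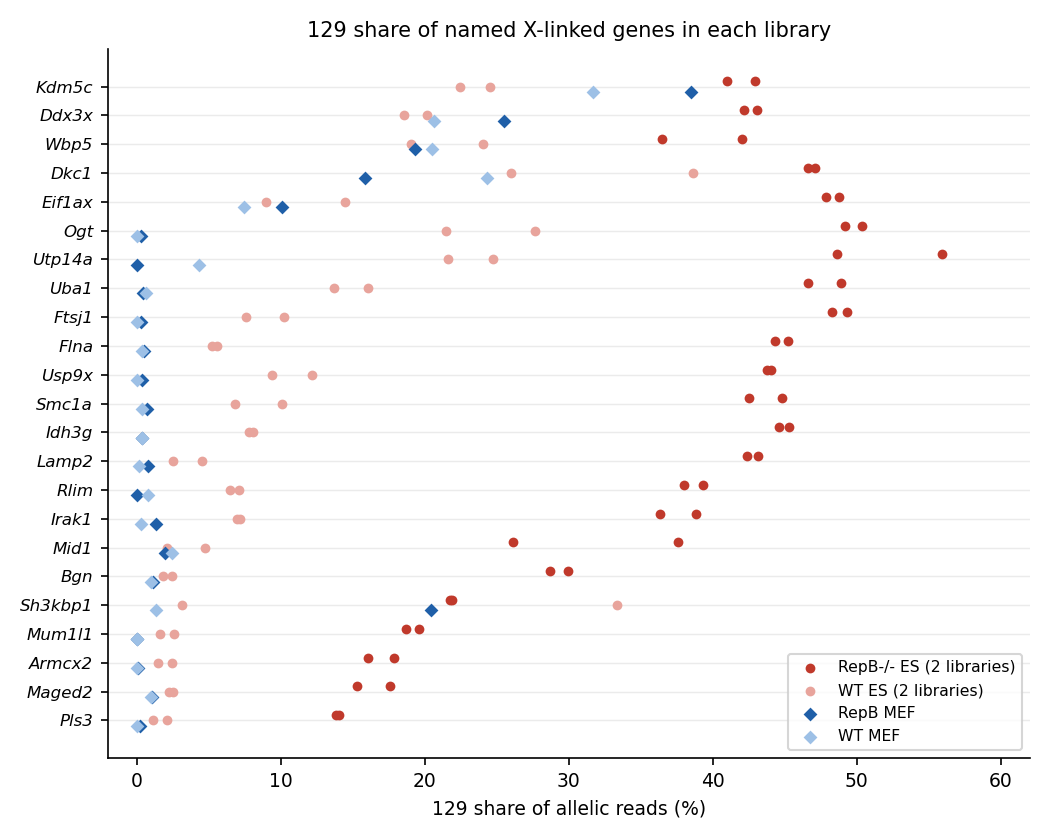
The 129 share (percentage of allelic reads) of 23 of the named X-linked genes, with 1 point per library: red for RepB-/- ES, pale red for WT ES, dark blue diamonds for RepB MEF and pale blue diamonds for WT MEF. Kdm5c at the top has all its points above 20%, while from Ogt down the MEF points sit near 0 for every gene shown except Utp14a in WT MEF and Sh3kbp1 in RepB MEF.

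Of the 19 escape genes in the tables, a total of 16 were measured, 10 were called toward 129 in RepB-/- ES against RepB MEF and none toward CAST, beside 218 of 250 over all measured X genes. The difference between these shares was not tested. Ddx3x, an RNA helicase, was among those called: 43.1% and 42.2% in RepB-/- ES, 20.2% and 18.5% in WT ES, 25.5% in RepB MEF and 20.6% in WT MEF. Kdm6a, a demethylase of histone H3 lysine 27, had 43.2% and 39.1% in RepB-/- ES and 49.02% (25 of 51 reads) in RepB MEF and was not called. Pbdc1 had 25.7% and 20.4% in RepB-/- ES and 32.7% in RepB MEF, and was not called. Gemin8, part of the complex that assembles small nuclear ribonucleoproteins, had 70.1% and 71.7% in RepB-/- ES and 59.4% in RepB MEF, also not called, and so were Kdm5c, 5530601H04Rik and Eif2s3x. In RepB MEF 9 of the 16 were under 10%, beside 211 of the 249 X genes other than Xist. Utp14a, a factor of small ribosomal subunit assembly, had 48.6% and 55.9% in RepB-/- ES, 24.8% and 21.6% in WT ES, 0.0% (0 of 149 reads) in RepB MEF and 4.35% in WT MEF. Mid1, a ubiquitin ligase bound to microtubules, had 37.6% and 26.1% in RepB-/- ES, 2.13% and 4.72% in WT ES, 1.98% in RepB MEF and 2.44% in WT MEF. Shroom4, Syap1 and Yipf6 had 0 reads from 129 in both MEF libraries. Eif2s3x, an initiation factor subunit known to escape in mouse, had 1 read from 129 in the ES libraries together and none in MEF, of at most 40 allelic reads in a library.

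Of the X inactivation centre, 2 genes besides Xist were measured, of 10 in the tables. Rlim, a ubiquitin ligase known to activate Xist, had 39.3% and 38.0% in RepB-/- ES, 6.46% and 7.14% in WT ES, 0.0% (0 of 228 reads) in RepB MEF and 0.806% in WT MEF. Ftx, a non-coding RNA gene upstream of Xist, had 24.7% and 30.0% in RepB-/- ES, 16.1% and 13.6% in WT ES, 32.8% in RepB MEF and 25% in WT MEF, and was not called.

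The RepB-/- ES share varied along the chromosome. In bins of 20 Mb, the median over genes measured in all 6 libraries was highest at 20 to 40 Mb (43.4% and 42.8% in RepB-/- ES, 14 genes) and lowest at 120 to 140 Mb (22.4% and 22.2%, 23 genes). WT ES stood at 1.96% and 2.63% in that low bin and at 9.37% and 10.0% in the high one. RepB MEF medians ran between 0.0% and 1.34% over the 9 bins, with WT MEF between 0.0% and 1.64%. Of the 30 genes under 20% in RepB-/- ES, 14 lay at 120 to 140 Mb, where 33 of all 249 measured genes lie, a stretch singled out after its values were seen. They included Armcx1, Armcx2, Armcx4 and Armcx6, neighbouring armadillo-repeat genes with 17.0% to 19.4% in RepB-/- ES, and Tsc22d3, a glucocorticoid-induced regulator, with 19.1%. The other measured members of the family were not low: Armcx3 had 44.8% and 48.6% in RepB-/- ES and 36.1% in RepB MEF, and Armcx5 had 41.1% and 31.1% in RepB-/- ES and 0.0% (0 of 30 reads) in RepB MEF. Distance from Xist went little with the share (Spearman rho 0.13 for RepB-/- ES and 0.03 for RepB MEF, across 194 genes).

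**Figure D4:**
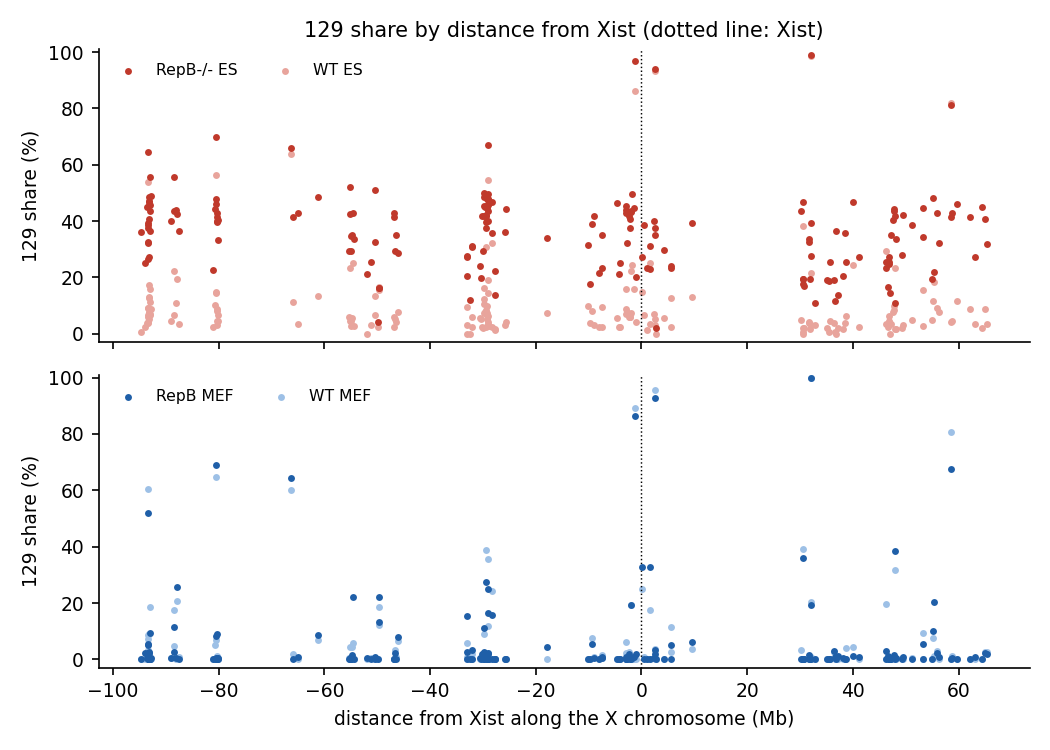
The 129 share (percent) of 194 X-linked genes against distance from Xist (Mb), with RepB-/- ES (mean of 2 libraries) and WT ES (mean of 2) in the upper panel and RepB MEF and WT MEF (1 library each) in the lower one. Most RepB-/- ES points lie above WT ES at all distances, and most MEF points of both genotypes lie at the bottom, with scattered genes such as Kdm5c above.

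Set against wild type of the same cell type, most X genes had a higher 129 ratio in RepB-/- ES. Both RepB-/- ES shares lay above both WT ES shares in 183 of 194 genes, a count not made for other chromosomes. In edgeR, 163 of 195 X genes were called toward 129 and 1, Xist, toward CAST. Toward 129, 2.17% of all genes and 0.0% of chromosome 13 genes were called, and 0.244% and 0.326% toward CAST. X genes made up 163 of the 187 genes called toward 129, and 0.285% of autosomal genes were called so. The median 129 share of autosomal genes was 98.7% in both RepB-/- ES libraries and 98.6% in both WT ES libraries, which leaves little room for a rise. DESeq2 called 97 X genes toward 129. In MEF the same contrast has 1 library a group and no test. By the rule of a share at least 10 percentage points higher with exact intervals apart, 1 of 195 X genes moved up, Sh3kbp1, and 2 moved down, Apex2 and Rbbp7. The same rule took 13.2% of all genes and 1.63% of chromosome 13 genes as higher, and the X count of rises was not above these. It took 6.4% of all genes and 1.95% of chromosome 13 genes as lower. A fall of 10 points needs a WT MEF share of at least 10%, and 170 of 194 X genes were under 10% there. The X count of falls therefore cannot be set against this background.

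The genes of this MEF contrast were few and mixed. Sh3kbp1, an adaptor in receptor endocytosis, had 20.5% (70 of 342 reads, interval 16.3% to 25.1%) in RepB MEF and 1.32% (2 of 151, 0.161% to 4.7%) in WT MEF. In ES it had 21.9% and 21.8% in RepB-/- cells, against 3.13% and 33.3% in WT cells, whose libraries lay on either side. Timp1, an inhibitor of matrix metalloproteinases, had 8.96% (25 of 279) in RepB MEF and 0.0% (0 of 166, which allows up to 1.81%) in WT MEF, with intervals apart but a difference under 10 points. In ES Timp1 had 40.8% and 39.3% in RepB-/- cells and 5.34% and 1.02% in WT cells. Apex2, an endonuclease of base excision repair, had 2.87% in RepB MEF and 19.8% in WT MEF, and Rbbp7 67.6% in RepB MEF and 80.6% in WT MEF. Plp2, a membrane protein, had 52.0% in RepB MEF and 60.5% in WT MEF, with intervals apart.

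The difference between the RepB effect in ES and in MEF was tested in the same edgeR fit. The change of the ratio was called larger toward 129 in ES for 25 of 195 X genes and larger toward CAST for none. Toward 129, 1.18% of all genes and 0.0% of chromosome 13 genes were called, and 1.73% and 0.0% toward CAST. The 25 X genes are part of the 102 called toward 129 over all genes. Of autosomal genes 0.914% were called toward 129 and 1.77% toward CAST. Their median 129 share was 98.6% to 98.7% in ES of both genotypes, which leaves little room for a rise in ES. The all-gene and autosomal values toward 129 are therefore a limited background for X. At an unadjusted p under 0.05 there were 60 X genes. DESeq2 called 1, Maged1, and with RepB-/- ES replicate 2 left out edgeR called 15. The test had little to work with in many genes, since 115 of the 195 had 0 reads of an allele in at least 1 group, and a gene that was not called is not shown to change alike in both. In Flna the 129 share was 39.4 points higher in RepB-/- than in WT ES and 0.117 points higher in RepB than in WT MEF (log2 difference of the changes 3.42 ± 0.28, SE, adjusted p = 2.35e-30). In Maged1, a MAGE family protein, the shares were 41.5% and 42.3% in RepB-/- ES, 2.68% and 3.78% in WT ES, 0.438% in RepB MEF and 1.02% in WT MEF (5.69 ± 0.63, SE, adjusted p = 1.38e-13 in edgeR). In Bgn the changes were 27.2 points in ES and 0.193 points in MEF (4.02 ± 0.36, SE, adjusted p = 9.65e-26 in edgeR). All 25 genes had a higher change in ES in percentage points, between 13.35 for Rps4x and 49.2 for Rbm3, a cold-induced RNA-binding protein.

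**Figure D5:**
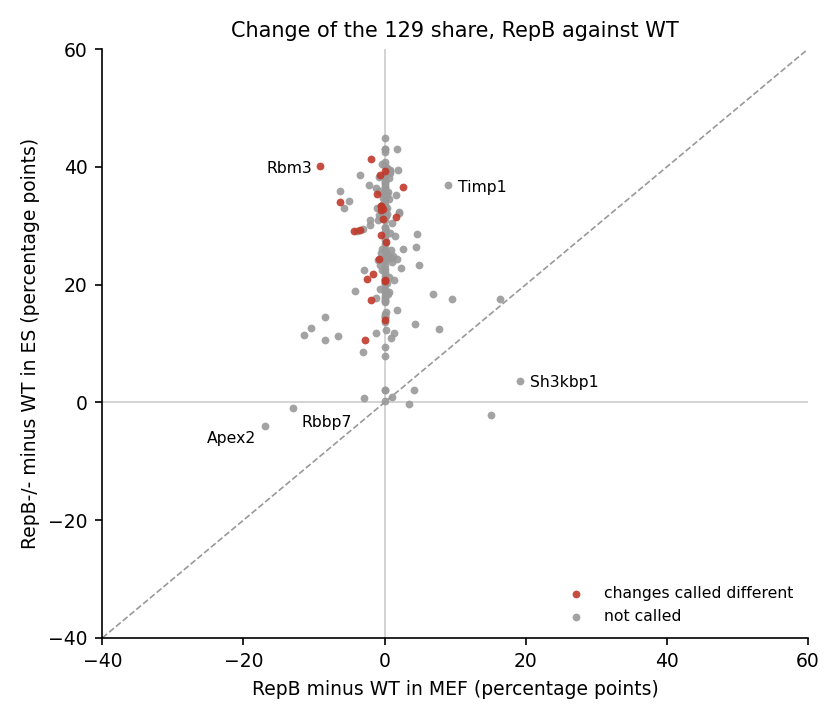
Change of the 129 share of 194 X-linked genes, in percentage points, as RepB-/- minus WT in ES (up, means of 2 libraries) against RepB minus WT in MEF (across, 1 library each). The dashed line marks equal change, red the 25 genes whose changes were called different, and most genes form a column at 0 in MEF that reaches above 40 points in ES.

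Levels of each chromosome were compared as well. Summed over the 194 genes, 129 reads made up 2007 and 1917 CPM in RepB-/- ES, against 418 and 432 CPM in WT ES, and 220 CPM in RepB MEF, against 206 CPM in WT MEF. CAST reads made up 2901 and 2989 CPM in RepB-/- ES, against 3443 and 3463 CPM in WT ES, and 4441 CPM in RepB MEF, against 5607 CPM in WT MEF. The median gene's 129 level was 2.81 ± 0.0041 higher in RepB-/- than in WT ES on the scale of log2(CPM + 0.05) (SD over the 2 RepB-/- libraries), while the same value for CAST was −0.17 ± 0.016. In MEF the same medians were 0.0 for 129 and −0.02 for CAST. The 129 value there is held at 0 by ties, since 68 of the 194 genes had 0 reads from 129 in both MEF libraries, and cannot be set against the ES value as a measured lack of change. With plain CPM the sign of the MEF value for CAST turned (0.10).

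The 132 X genes with enough reads only in RepB-/- ES had median 129 shares of 28.2% and 29.1% there, and those with enough reads in WT ES had 3.81% (102 genes) and 4.71% (72 genes). The 7 genes measured only in RepB MEF had a median of 2.13%, and 6 of them were under 10%.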

How the data were processed

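Of the 50 samples of the series, 8 RNA libraries were used (2 each of RepB-/-, RepB+/- and WT ES, 1 each of RepB and WT MEF), and 42 were not used here. The tables deposited by the authors hold their whole-number counts per gene for all reads, reads of the 129 allele and reads of the CAST allele (24 columns, read as such from the strain background in the labels). Per the file headers they have the layout of featureCounts, with positions on mm9. TopHat, Novoalign, cutadapt and featureCounts are among the tools in the submitters' processing notes, in no stated order or version. The strand setting and the treatment of reads with several matches are not given in the sources used here. Near-identical gene copies and reads that map less well for one strain can bias single shares, so chromosome 13 was kept beside X; it was chosen after its shares were seen.

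A share needed at least 20 allelic reads in each library compared. The 129 and CAST counts of the 8 libraries (16 columns) entered 1 fit in edgeR 4.0.16 under R 4.3.3 (quasi-likelihood test, TMM from all reads, library as a block, allele by group terms), adjusted by Benjamini-Hochberg over all genes tested, and checked on simulated data. DESeq2 1.42.0 was an alternative. Where a group had 0 reads of an allele, no fitted ratio is given. Intervals are exact Clopper-Pearson (95%) and, like the floor of 3 reads per library, cover counting error only. Genes were named by rule: all measured escape and X inactivation centre genes, and among genes with at least 200 allelic reads per RepB library the extremes of ES minus MEF (6 each way, and 2 and 1 per list), of the RepB MEF share, of the change in MEF and of low RepB-/- ES shares. Cxx1a, Cxx1c, Pgk1, Gpc4, the Armcx genes, Apex2, Maged1 and Rbm3 were named after their values were seen, and 1 gene the rule names is not reported here. The members and lists were chosen with earlier results of these data known. Alternatives were fixed with the comparisons, except the crossed pairing, which was added later.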

Additional observations from a re-analysis of the deposited data

Results flagged for a closer look

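For 25 X-linked genes the RepB against WT change differed between ES and MEF by a test of the difference itself (edgeR quasi-likelihood test of the allele by group terms, adjusted p under 0.05). The values are the change of the 129 share in ES minus that in MEF, in percentage points, and all are positive. Above 35 points stood Rbm3 (49.2), Ccdc22 (43.4), Timm17b (40.4), Flna (39.24), Maged1 (39.22) and Gripap1 (36.6). Between 30 and 35 points stood Eif1ax (33.99), Pdha1 (33.99), Tfe3 (33.8), Utp14a (33.4), Cdk16 (33.3), Uba1 (33.1), Gpkow (32.8) and Hcfc1 (31.5). Below these came Ndufb11 (29.9), Mid1 (28.9), Bgn (27.0), Tceal8 (25.2), Hdac6 (23.55), Sh3bgrl (23.51), Nono (20.8), Msn (20.55), Praf2 (19.4), Maged2 (13.97) and Rps4x (13.35). Tceal8, Utp14a and Sh3bgrl had 0 reads from 129 in RepB MEF, and Rps4x has near-identical copies elsewhere in the genome.

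The 2 RepB+/- ES libraries, which enter the shared spread but no comparison above, had median 129 shares over the same 194 X genes of 38.3% and 32.2%, against 5.26% and 6.34% in WT ES. The labels used here do not say which of their Xist alleles lost the repeat. Replicate 2, the library of fewest reads (8000722), had the lower of these values.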

How the results depend on the processing

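Over the alternatives, 122 values on which a comparison rests were labelled the same, 26 moved and 2 turned sign. Differences were labelled the same within their spread, and counts of genes within a limit on their fold difference. That limit was wide: for the different change toward 129, 17 and 33 X genes both counted as the same as 25. With at least 50 allelic reads, the X median difference was 38.7 points for RepB-/- ES minus RepB MEF, 33.5 for RepB-/- ES minus WT ES and 33.3 for the change in ES minus that in MEF. With pooled reads these were 35.3, 29.0 and 27.8, and RepB MEF minus WT MEF was 1.19. With the mean over genes they were 30.8, 26.2 and 26.3, and RepB MEF minus WT MEF was −0.098, the reverse sign. With no minimum of reads, 2 X genes were called toward CAST in RepB-/- ES against RepB MEF. DESeq2 called 1 X gene for a different change in ES and MEF, and 97 for RepB-/- ES against WT ES. Leaving out 1 library each gave 15 to 27 X genes for the different change toward 129 and 0 to 1 toward CAST, and 4 to 7 genes low in both cell types, of which there were 6 with at least 10 allelic reads. In MEF, 1 gene was lower with at least 50 reads, 2 were higher at a step of 5 points, and at 20 points 0 were higher and 0 lower. The 129 level in ES changed by 2.02 with a pseudocount of 0.5 and by 2.89 with plain CPM, which gave −0.0816 for CAST in ES and 0.10 for CAST in MEF, against −0.02. The cause of these shifts was not tested. Same-numbered ES libraries deviated together with a correlation of −0.122 over 294 X genes and are taken to share only a number. With a replicate block, 219, 24 and 167 X genes were called toward 129 in the 3 edgeR comparisons, against 218, 25 and 163 without it. With the pairing crossed, a choice made after seeing the data, they were 218, 19 and 162. Single named genes lost their call in 28 cases, gained one in 19 and were otherwise on the same side. MEF has 1 library a genotype, and a median of 69 reads behind the 117 genes at 0 in RepB MEF limits what could be seen there.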
